A study of Saccharomyces cerevisiae with 27 samples.

Results

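The interaction of the cohesin acetyltransferase allele eco1-W216G with deletion of RAD61 was measured in 12 of the 27 yeast expression arrays of the study. All 12 arrays carrying the 4 genotypes needed for it were used: wild type, eco1-W216G, the rad61 deletion (rad61Δ) and eco1-W216G rad61Δ, with 3 cultures each. The interaction is the change that went with eco1-W216G in rad61Δ cells minus the change that went with it in wild-type cells, on the log2 scale. It is 0 where eco1-W216G changed a gene by the same factor in both backgrounds, negative where the change without RAD61 was lower, and positive where it was higher. Wild type and eco1-W216G were grown on a later experiment date, rad61Δ and eco1-W216G rad61Δ on an earlier one. A date shift that is the same in all strains cancels in the interaction. eco1-W216G in an otherwise wild-type strain was not among the cultures of the earlier date, so a dependence of its response on the date and a dependence on RAD61 cannot be told apart. Cells grew exponentially at 30 °C in rich medium (YPD) with an added amino acid mix (CSM). The cultures of a genotype were treated as 1 strain isolate, whose spread is what the tests measure. For rad61Δ replicate 2, whose values stood apart, this was not tested.

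Cohesin is the ring-shaped complex that holds sister chromatids together and folds chromosomes into loops. Eco1 acetylates the cohesin subunit Smc3 during replication, which makes the ring stay on DNA, whereas Rad61, the yeast Wapl protein, promotes its release and opposes cohesion. Loss of Rad61 is known to let cells live without the otherwise essential Eco1. The W216G change lowers the acetyltransferase activity and corresponds to a mutation in the human homologue ESCO2 found in Roberts syndrome, a developmental disorder.

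The deposited intensities had array medians between 1226.55 and 1275.15 over the 12 arrays, and arrays of 1 group correlated at 0.990 to 0.998. RAD61 signal marked the deletion, with 7.24 ± 0.05 (log2 intensity, SD, n = 3) in wild type and 6.80 ± 0.12 in eco1-W216G against 3.93 ± 0.36 in rad61Δ and 3.77 ± 0.08 in the double mutant. ECO1 signal was also low in every culture with the allele, at 4.55 to 4.68 in eco1-W216G and 4.52 to 4.98 in the double mutant against 7.74 to 7.97 in the other 6 cultures. The fall was 3.24 with RAD61 and 3.10 without it on the log2 scale, and the interaction for ECO1 was 0.14 ± 0.16 (SE, limma adjusted p = 0.555). The levels with the allele lie just above the 3.67 to 4.35 read for deleted RAD61. The background of the ECO1 probe set was not measured. These falls may therefore be lower bounds, and the interaction may be limited by a floor. The a-mating genes STE2, MFA1 and MFA2, which encode the alpha-factor receptor and a-factor, were above 12.8 in all 4 group means, while MF(ALPHA)1, the alpha-factor gene, was at 4.03 to 4.75. None of the 7 a-specific and 4 alpha-specific genes passed the test for the interaction. With eco1-W216G, 3 of the 4 alpha-specific genes rose in wild type (list median 0.51) and 1 rose in rad61Δ. Of the 7 a-specific genes 2 rose and 1 fell in wild type, and 1 rose in rad61Δ.

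Replicate 2 of rad61Δ stood apart from its group. Over the 191 probe sets of chromosome IX it lay above both other rad61Δ cultures at 184, by a median of 0.82 on the log2 scale against the mean of those replicates. In addition, 5 reporter probe sets read 3.63 to 4.74 in it and 8.33 to 13.37 in the other 11 arrays. Whether it came from the same isolate as the other rad61Δ cultures was not tested. Values without this array are given for counts it moved by more than 1.5 times, other than changes of a single gene, and for printed calls lost without it. The median interaction on chromosome IX was -0.28 with all arrays and -0.05 without that culture, and the calls there were 42 lower and 1 higher with it, and 33 lower and 12 higher without it.

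**Figure D1:**
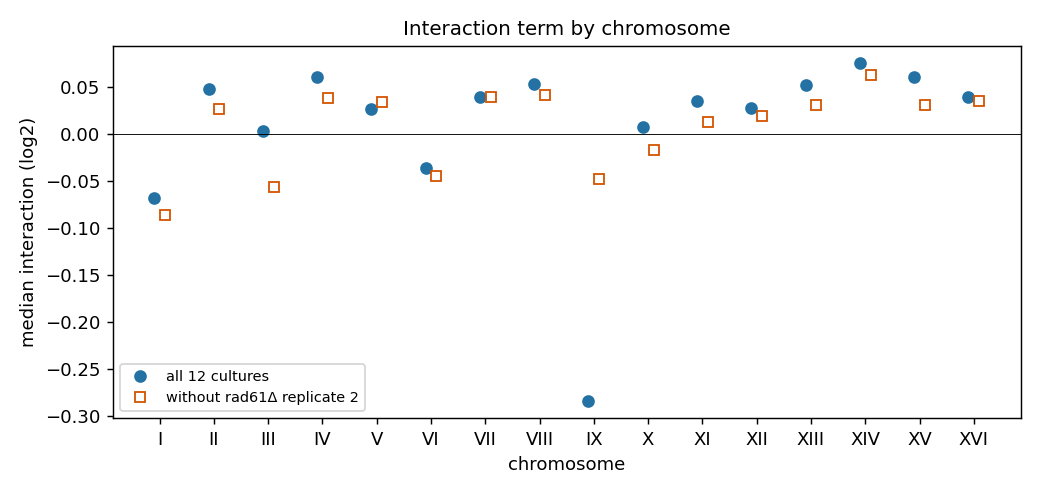
Median interaction (log2, y axis) over the probe sets of each of the 16 chromosomes (x axis), with all 12 cultures (filled circles) and without rad61Δ replicate 2 (open squares). Chromosome IX lies at -0.28 with that culture and at -0.05 without it.

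The eco1-W216G response was smaller in the rad61 deletion, for genes that rose and for genes that fell. The change of stress genes such as HSP26, HSP30 and DDR2, upward with RAD61, was far smaller without it, and so was the downward change of daughter-cell genes such as BUD9 and DSE1. Of 5716 probe sets tested, 1341 (23.5%) passed the test for the interaction at an adjusted p of 0.05 (limma, Benjamini-Hochberg), 677 higher and 664 lower (11.8% and 11.6%). Of these, 13 were higher and 168 lower by at least 2-fold. Leaving out each of the 12 arrays gave 981 to 1304 calls, and 835 probe sets were called in all 12 of those fits, 371 higher and 464 lower. Without rad61Δ replicate 2 the count was 1260, of which 1111 were among the 1341.

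The 2 differences that make up the interaction were of unequal extent. In the wild-type background eco1-W216G changed 3066 probe sets (53.6%), 1354 up (23.7%) and 1712 down (30%). In the rad61Δ background it changed 384 (6.72%), 296 up (5.18%) and 88 down (1.54%). Same-numbered cultures of rad61Δ and the double mutant deviated together, and with replicate number as a block this second count was 649, 414 up and 235 down. It was 553 without rad61Δ replicate 2 and 198, 183 and 209 without double mutant replicates 1, 2 and 3. Of the 384, 330 were called in the same direction in wild type and 1 in the opposite direction.

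Most interaction calls were of 2 kinds. In 518 the gene rose with eco1-W216G in wild type and did not pass the test in rad61Δ, and in 128 more it rose in both with a lower rise without RAD61. On the other side 628 fell in wild type and were not called in rad61Δ, and 17 fell in both by less. No probe set was called in all 3 tests with a larger change without RAD61 than with it. Other probe sets changed in the same direction in both backgrounds and were not called in the interaction, 141 up and 44 down. These kinds come from the fit without the replicate block, which called 384 probe sets in rad61Δ against 649 with it. They were not counted with the block. The interaction contains the change in wild type with a minus sign, so an error in that change moves both values, and their opposite signs are partly set by the arithmetic.

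**Figure D2:**
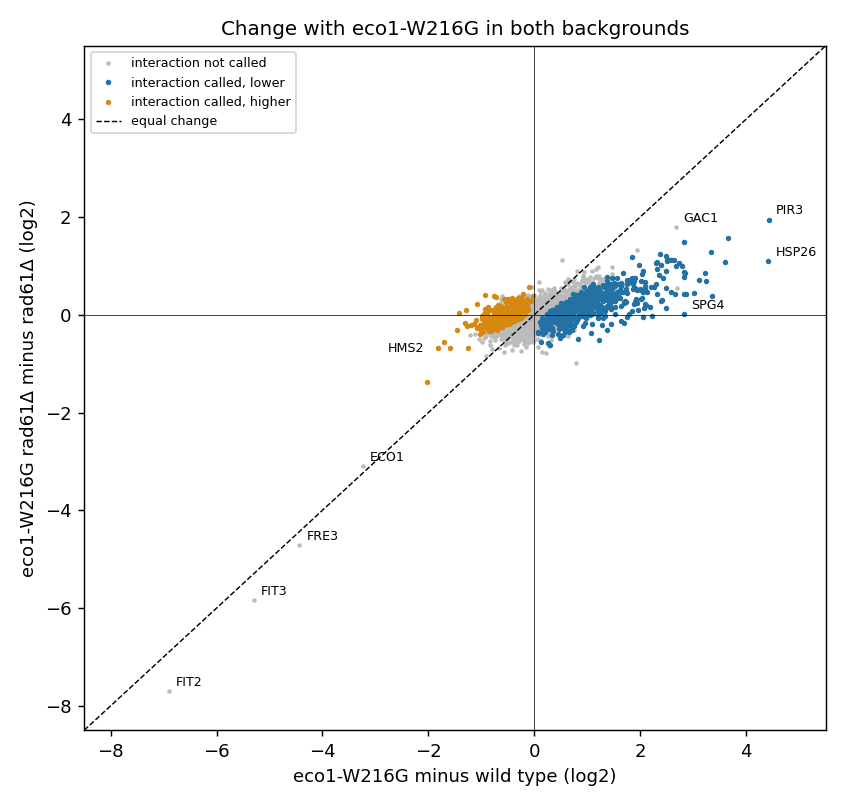
Change with eco1-W216G in wild type (x axis, log2) against the change with it in rad61Δ (y axis, log2), 1 point for each of 5716 probe sets, blue where the interaction was called lower and orange where it was called higher. SPG4, called lower, lies near the horizontal zero line, and PIR3 and HSP26 lie far below the dashed line of equal change, while ECO1, FRE3, FIT3 and FIT2 lie near that line.

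Levels were also set side by side across the dates, as a description. For the 646 probe sets that rose in wild type with a lower interaction, the median change was 0.81 in wild type and 0.15 in rad61Δ. The double mutant lay below eco1-W216G at 619 of them, by a median of -0.38, and rad61Δ lay above wild type at 584, by a median of 0.29. For the 646 that fell with a higher interaction, the median was -0.47 in wild type and -0.03 in rad61Δ, with the double mutant above eco1-W216G at 612 and rad61Δ below wild type at 517. The interaction is the difference of these differences, so selecting on it favours those directions, and each of them holds the date. They do not show which cultures the interaction came from. The fob1 deletion, the only strain grown on both dates, differed between them (earlier minus later) by a median of -0.02 and -0.01 over these sets, but single genes differed far more. FIT3 and FIT2 were at 1.96 and 1.42 in that comparison, DDR2 at 0.55, HSP30 at 0.52 and XBP1 at -0.52.

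Targets of the stress transcription factors Msn2 and Msn4, which switch on protective genes in stressed or slowly growing cells, rose less without RAD61. Of 54 measured, 35 were lower in the interaction and 0 higher, with a median of -0.81 against 0.03 over all probe sets. The lower share was 64.8%, against 11.6% of all probe sets. All 54 rose with eco1-W216G in wild type, by a median of 1.42, and 34 rose in rad61Δ, by a median of 0.61. These rises were 100% and 63% of the list, against 23.7% and 5.18% of all probe sets. The list was chosen with earlier results of these data known. The rise in wild type enters the interaction with a minus sign, so the negative values are partly set by the arithmetic. The list was higher in every eco1-W216G culture, where its median lay 1.35 to 1.53 above the wild-type mean, than in the double mutant, at 1.01 to 1.11, and rad61Δ lay at 0.32 to 0.51. The 4 groups did not overlap in this measure. Leaving out single arrays gave 33 to 37 lower genes.

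HSP26, a small heat shock protein that keeps unfolding proteins soluble, had the lowest interaction of all genes called in every fit. Its log2 intensity was 8.38, 8.50 and 8.51 in wild type, 12.97, 12.76 and 12.91 in eco1-W216G, 9.67, 11.13 and 10.08 in rad61Δ, and 11.45, 11.33 and 11.40 in the double mutant. The eco1-W216G cultures were far above wild type, while the double mutant lay only just above the highest rad61Δ culture, replicate 2. The rise was 4.42 with RAD61 and 1.10 without it on the log2 scale, an interaction of -3.32 ± 0.45 (SE, adjusted p = 2.89e-05), or -2.90 without that replicate.

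HSP30, which restrains the plasma membrane proton pump under stress, read 7.72, 8.05 and 7.78 in wild type, 11.39, 11.07 and 11.17 in eco1-W216G, 9.20, 10.87 and 9.55 in rad61Δ, and 10.15, 10.35 and 10.26 in the double mutant. The double mutant fell within the range of rad61Δ. The interaction was -2.98 ± 0.46 (adjusted p = 0.000118) and -2.48 without rad61Δ replicate 2. DDR2, a stress gene of multiple inducers, was at 9.78 to 10.33 in wild type, 13.19 to 13.27 in eco1-W216G, 11.01 to 11.80 in rad61Δ and 11.77 to 12.36 in the double mutant, an interaction of -2.56 ± 0.36. SIP18, a hydrophilic protein of desiccation tolerance, rose from 6.73 ± 0.27 to 9.74 ± 0.25 in wild type, while rad61Δ at 6.94 ± 0.78 and the double mutant at 7.37 ± 0.49 overlapped. XBP1, a stress-induced repressor gene on chromosome IX, had an interaction of -2.40 ± 0.70 (adjusted p = 0.0167), which was -1.70 without rad61Δ replicate 2 (adjusted p = 0.0475).

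Several of the lowest genes belong to none of the stress lists. SPG4, required for survival at high temperature in stationary phase, read 7.16, 7.49 and 7.16 in wild type, 10.06, 10.06 and 10.14 in eco1-W216G, 8.58, 8.29 and 8.27 in rad61Δ, and 8.34, 8.39 and 8.47 in the double mutant. It rose 7.07-fold with RAD61, and the cultures without RAD61 overlapped, with a difference of 0.02 ± 0.37. THI4, which makes the thiazole part of thiamine, read 8.20, 8.09 and 7.88, then 11.05, 10.77 and 10.97, then 8.35, 8.53 and 8.12, then 8.67, 8.83 and 8.74 in the same order of groups. The double mutant lay above all rad61Δ cultures, but the change of 0.42 ± 0.17 did not pass the test (adjusted p = 0.148), and the interaction was -2.46 ± 0.24 (adjusted p = 5.92e-07). NQM1, a transaldolase of the pentose phosphate pathway, rose 9.37-fold with RAD61 and 1.80-fold without it, and both rises passed, with an interaction of -2.38 ± 0.18 (adjusted p = 1.81e-08). Of the same pathway, SOL4, a 6-phosphogluconolactonase, rose 7.23-fold with RAD61 and 1.81-fold without it, and TKL2, a transketolase, had an interaction of -1.86 ± 0.25.

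**Figure D3:**
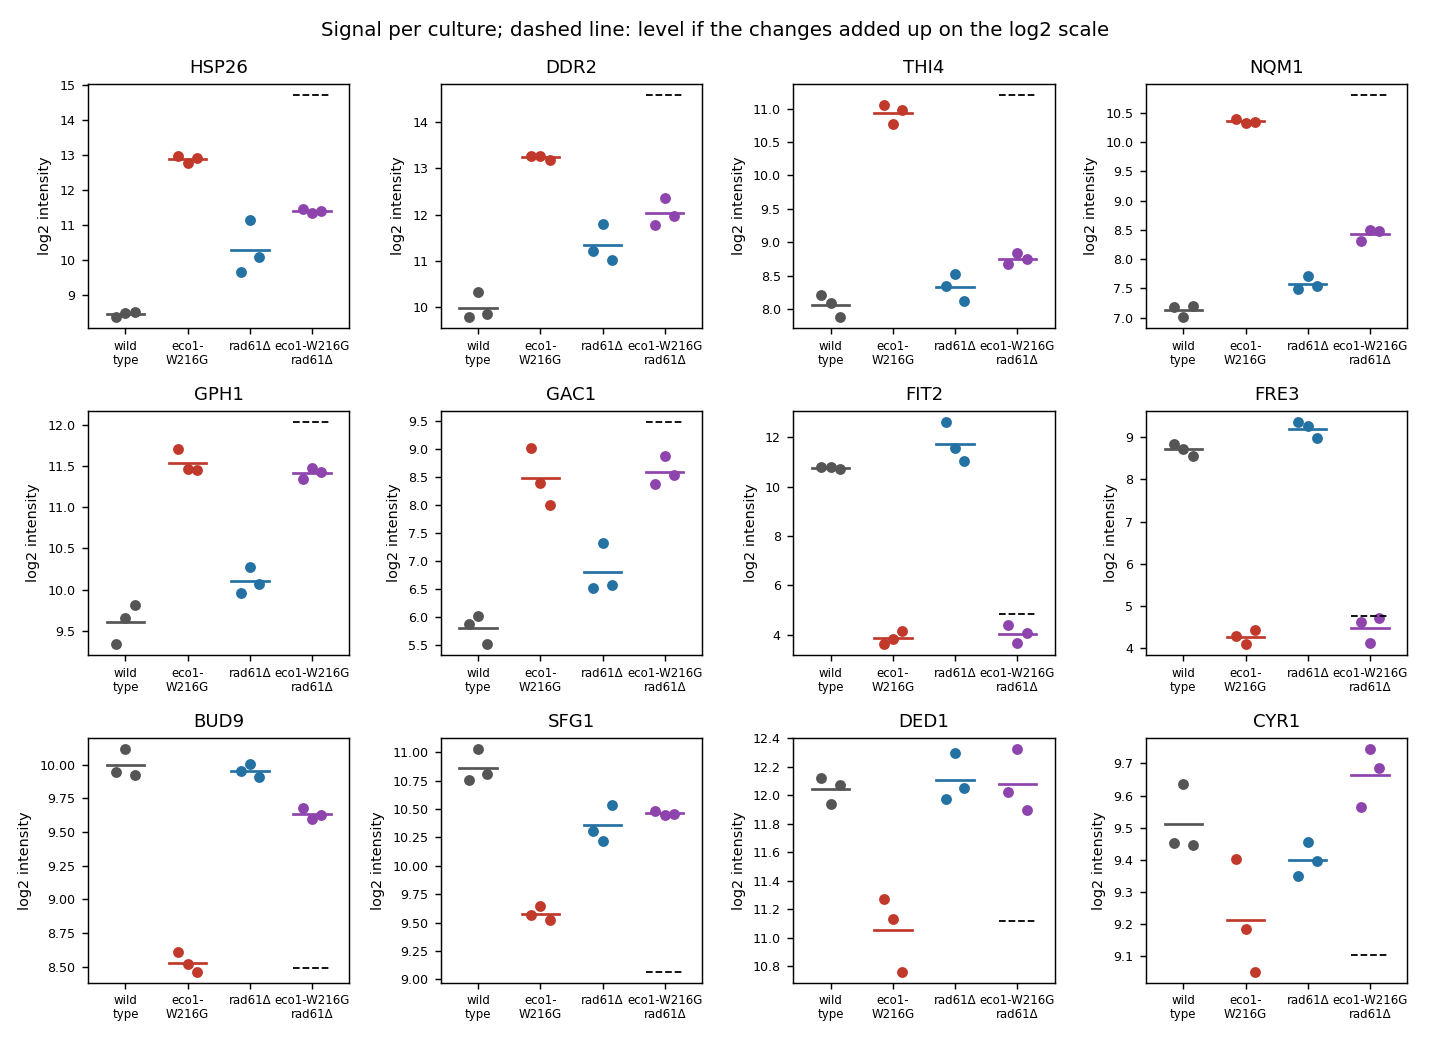
Log2 intensity (y axis) of 12 genes in each culture (points) and the group mean (bar) for wild type, eco1-W216G, rad61Δ and eco1-W216G rad61Δ; the dashed line is the level the double mutant would have if the separate log2 changes added up. HSP26, DDR2, THI4 and NQM1 lie below that line in all 3 double mutant cultures, and BUD9, SFG1, DED1 and CYR1 above it.

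Storage carbohydrate genes rose in both backgrounds. Of 20 genes of glycogen and trehalose metabolism, 17 rose in wild type (median 0.84) and 17 rose in rad61Δ (median 0.53). This is 85% of the list in each, against 23.7% and 5.18% of all probe sets. In the interaction NTH1, a trehalase, and GLC3, the glycogen branching enzyme, were lower, 10% of the list against 11.6% of all probe sets. That count was not stable. It was 6 with the replicate block, 4 without eco1-W216G replicate 3, and 1 without wild-type replicate 2 or without rad61Δ replicate 2. NTH1 was at -0.65 ± 0.12 (adjusted p = 0.000449), and GLC3 at -0.72 ± 0.25 (adjusted p = 0.0411), a call lost without rad61Δ replicate 2 (adjusted p = 0.123). Without rad61Δ replicate 3, 10 of the 20 rose in rad61Δ. The 12 genes shared with the Msn2 and Msn4 list are 60% of this list and 22.2% of that one. Among them 2 were called lower and the median interaction was -0.36, against 33 of the other 42 Msn2 and Msn4 targets and a median of -1.16. In rad61Δ the medians of these sets were 0.71 and 0.61. The difference between the sets was not tested.

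GPH1, glycogen phosphorylase, read 9.33, 9.66 and 9.81 in wild type, 11.71, 11.46 and 11.45 in eco1-W216G, 9.96, 10.27 and 10.06 in rad61Δ, and 11.35, 11.48 and 11.43 in the double mutant. The cultures with eco1-W216G were above those without it in both backgrounds, by 3.84-fold and 2.50-fold, and the interaction of -0.62 ± 0.24 did not pass (adjusted p = 0.0628). GAC1, which targets the type 1 phosphatase to glycogen synthase, rose 6.38-fold and 3.45-fold with an interaction of -0.89 ± 0.40 (adjusted p = 0.112, and 0.0247 with the replicate block). HXK1, the hexokinase of glucose-poor conditions, rose 2.30-fold and 1.96-fold, and its interaction was -0.23 ± 0.20 (adjusted p = 0.425). With intervals this wide, a smaller rise without RAD61 cannot be set aside for any of them.

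Glucose-repressed genes rose with RAD61, and few passed the test without it. Of 26 glucose-repressed genes, 19 rose and 1 fell in wild type (median 0.86), 76.9% against 53.6% of all probe sets. In rad61Δ 4 rose and 1 fell (2 risen without double mutant replicate 2), with a median of 0.06, or 0.24 without rad61Δ replicate 2. The share called in rad61Δ was 19.2% against 6.72%. In the interaction 10 were lower (median -0.58), 38.5% of the list against 11.6% of all probe sets. The list median lay 0.79 to 0.96 above the wild-type mean in eco1-W216G, 0.65 to 0.83 in the double mutant and 0.33 to 0.64 in rad61Δ. The eco1-W216G and double mutant cultures thus overlapped in this measure. POT1, the peroxisomal thiolase of fatty acid breakdown, read 5.04, 4.71 and 4.81 in wild type, 6.88, 6.89 and 6.94 in eco1-W216G, 4.99, 5.92 and 5.17 in rad61Δ, and 5.19, 5.37 and 5.41 in the double mutant. The double mutant lay within the rad61Δ range, and the interaction was -2.09 ± 0.23 (adjusted p = 1.34e-06). CRC1, the mitochondrial carnitine carrier, and MDH2, the cytosolic malate dehydrogenase listed with the citric acid cycle, were at -1.85 ± 0.33 and -1.64 ± 0.26. Citric acid cycle genes rose in 16 of 18 cases in wild type and in 9 in rad61Δ (5 without double mutant replicate 2). In the interaction 6 were lower, 3 without rad61Δ replicate 2 and 2 without wild-type replicate 3. With all arrays the shares were 88.9%, 50% and 33.3%, against 23.7%, 5.18% and 11.6% of all probe sets. Of 34 genes of the respiratory chain and ATP synthase, 26 rose in wild type and 5 in rad61Δ, while 3 were lower in the interaction, 8.82% of the list against 11.6% of all probe sets. The rises were 76.5% and 14.7% of the list, against 23.7% and 5.18% of all probe sets. The count in rad61Δ was 1 without double mutant replicate 2, and that of the interaction 1 without wild-type replicate 1. Of 43 genes of hexose transport and glycolysis, 5 were lower (11.6%) and 3 higher (6.98%), shares equal to and below those of all probe sets. The higher ones were HXT1, a low-affinity glucose transporter, HXK2, the main hexokinase of growth on glucose, and MIG1, the glucose repressor.

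Protein quality genes differed among themselves. Of 34 proteasome genes, 30 rose in wild type, by a median of 0.33, 0 passed in rad61Δ, with a median of 0.08, and 13 were lower in the interaction, with a median of -0.23. With replicate number as a block 3 of them rose in rad61Δ. In the main fit 88.2% rose in wild type and 38.2% were lower in the interaction, against 23.7% and 11.6% of all probe sets. In rad61Δ 5.18% of all probe sets rose. In every eco1-W216G culture the list median lay 0.32 to 0.33 above the wild-type mean, against -0.01 to 0.06 in the double mutant and -0.10 to -0.04 in rad61Δ. The named members were UMP1, the assembly chaperone, at -0.49 ± 0.13, and the core subunit genes PRE8, PRE3 and PRE2 at -0.42, -0.42 and -0.40. Of 29 heat shock chaperone genes, 6 were lower and 3 higher in the interaction, 20.7% and 10.3% against 11.6% and 11.8% of all probe sets. In wild type 15 rose and 4 fell, and 10 rose in rad61Δ (15 with the replicate block, 6 without double mutant replicate 1). The lower genes included SSA4 at -1.63 ± 0.19 and SSA3 at -1.49 ± 0.11, the stress-inducible cytosolic Hsp70 genes. The 3 higher ones were the Hsp70 genes SSB2 of the ribosome at 0.36 ± 0.11, KAR2 of the endoplasmic reticulum at 0.26 ± 0.08 and SSC1 of mitochondria at 0.48 ± 0.10. SSB2 and KAR2 lost their calls without eco1-W216G replicate 3 (adjusted p = 0.0631 and 0.086). Of 32 oxidative stress genes under Yap1, 11 were lower, among them SRX1, sulfiredoxin, at -1.88 ± 0.31 and CTT1, cytosolic catalase, at -1.65 ± 0.29. The 2 higher ones were GSH1, of glutathione synthesis, and YCF1, a vacuolar glutathione conjugate pump. The lower and higher shares were 34.4% and 6.25%, against 11.6% and 11.8% of all probe sets.

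**Figure D4:**
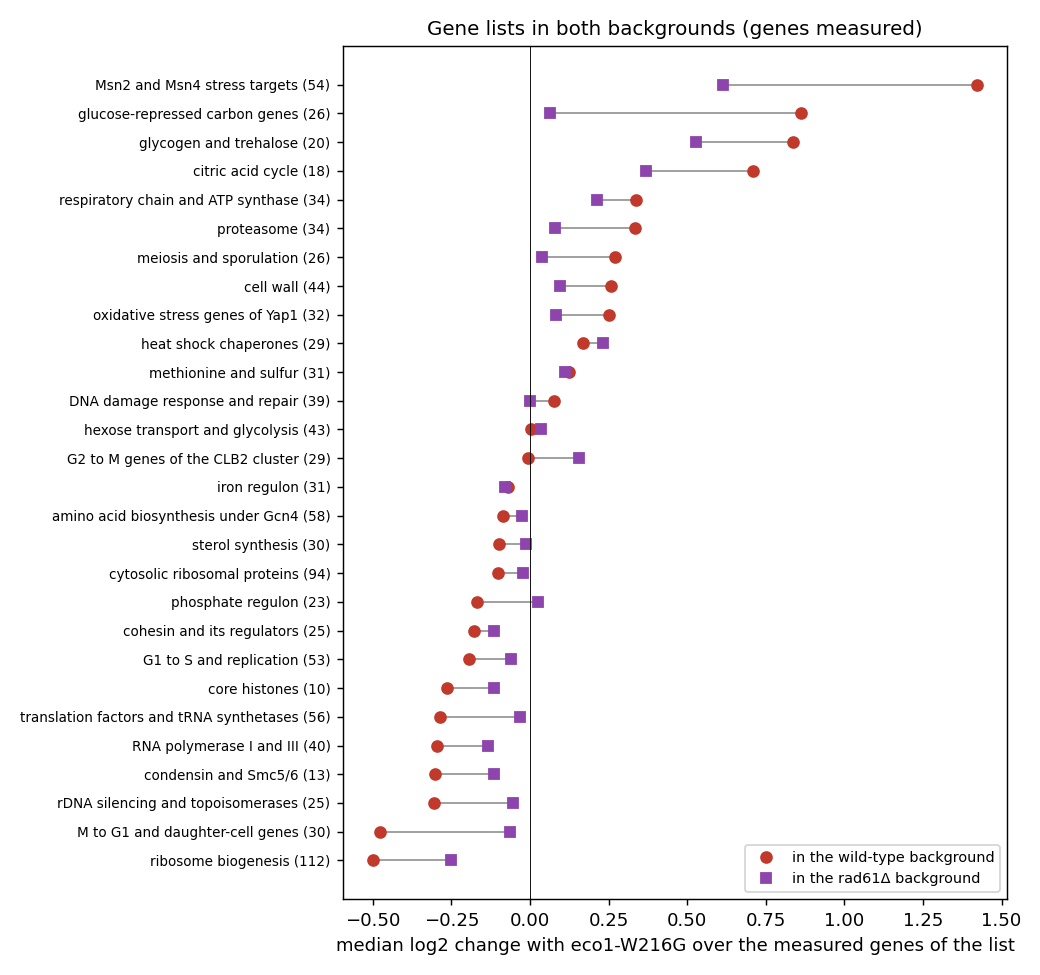
Median log2 change with eco1-W216G (x axis) over the measured genes of each list with at least 10 of them, in wild type (red circles) and in rad61Δ (purple squares), with the number of genes in parentheses. Msn2 and Msn4 targets moved from 1.42 to 0.61 and glucose-repressed genes from 0.86 to 0.06, while ribosome biogenesis moved from -0.50 to -0.25. Without rad61Δ replicate 2 these medians in rad61Δ were 0.75, 0.24 and -0.29.

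Some growth genes fell less without RAD61. Of 112 ribosome biogenesis genes, 99 fell in wild type (median -0.50) and 3 in rad61Δ (median -0.25), and 22 were higher in the interaction (median 0.27). The interaction share was 19.6%, against 11.8% of all probe sets. Falls were 88.4% against 30% in wild type and 2.68% against 1.54% in rad61Δ. With the replicate block, 37 fell in rad61Δ and 33 were higher in the interaction. Leaving out rad61Δ replicates 2 and 3 gave 10 and 0 falls in rad61Δ, so that count was not stable. The list median lay at -0.59 to -0.52 from the wild-type mean in the double mutant, at -0.63 to -0.41 in eco1-W216G and at -0.39 to -0.22 in rad61Δ. eco1-W216G and the double mutant thus overlapped, and rad61Δ lay below all wild-type cultures, which ran from -0.11 to 0.13. NOP9, a factor of small subunit assembly, read 10.62, 10.61 and 10.86 in wild type, 9.79, 9.84 and 9.71 in eco1-W216G, 10.23, 10.34 and 10.41 in rad61Δ, and 10.09, 10.29 and 10.26 in the double mutant. The groups did not overlap with RAD61 and did overlap without it, with an interaction of 0.80 ± 0.16 (adjusted p = 0.000948). UTP22 and DIP2, of the small subunit processome, were at 0.72 ± 0.11 and 0.74 ± 0.17.

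Among 56 genes of translation factors and tRNA synthetases, 41 fell in wild type, 0 passed in rad61Δ, and 25 were higher in the interaction, with medians of -0.29, -0.03 and 0.29. The falls in wild type were 73.2% against 30% of all probe sets, and the interaction share was 44.6% against 11.8%. In rad61Δ 1.54% of all probe sets fell. The interaction count was 15 without eco1-W216G replicate 3 and 19 without rad61Δ replicate 2. DED1, a helicase that scans messenger RNA for start codons, read 12.12, 11.94 and 12.07 in wild type, 11.27, 11.13 and 10.76 in eco1-W216G, 11.98, 12.29 and 12.05 in rad61Δ, and 12.02, 12.32 and 11.90 in the double mutant. Only the eco1-W216G cultures with RAD61 were low, and the interaction was 0.96 ± 0.21 (adjusted p = 0.00286). TIF4631, the scaffold eIF4G, SUP35, a termination factor, and MES1, the methionyl-tRNA synthetase, were at 0.71 ± 0.15, 0.69 ± 0.11 and 0.60 ± 0.09. Cytosolic ribosomal protein genes moved less, with 38 of 94 down in wild type, 0 called in rad61Δ and 6 higher in the interaction, a share of the list below the 11.8% of all probe sets. That count was 2 without rad61Δ replicate 2. The falls of these genes in wild type were 40.4% of the list, against 30% of all probe sets. Of 40 genes of RNA polymerases I and III, 25 fell in wild type, 0 in rad61Δ (6 without rad61Δ replicate 2, 4 with the replicate block) and 3 were higher in the interaction, 7.5% of the list and again below the 11.8%. Among them BDP1, of the polymerase III initiation factor, was at 0.79 ± 0.14.

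**Figure D5:**
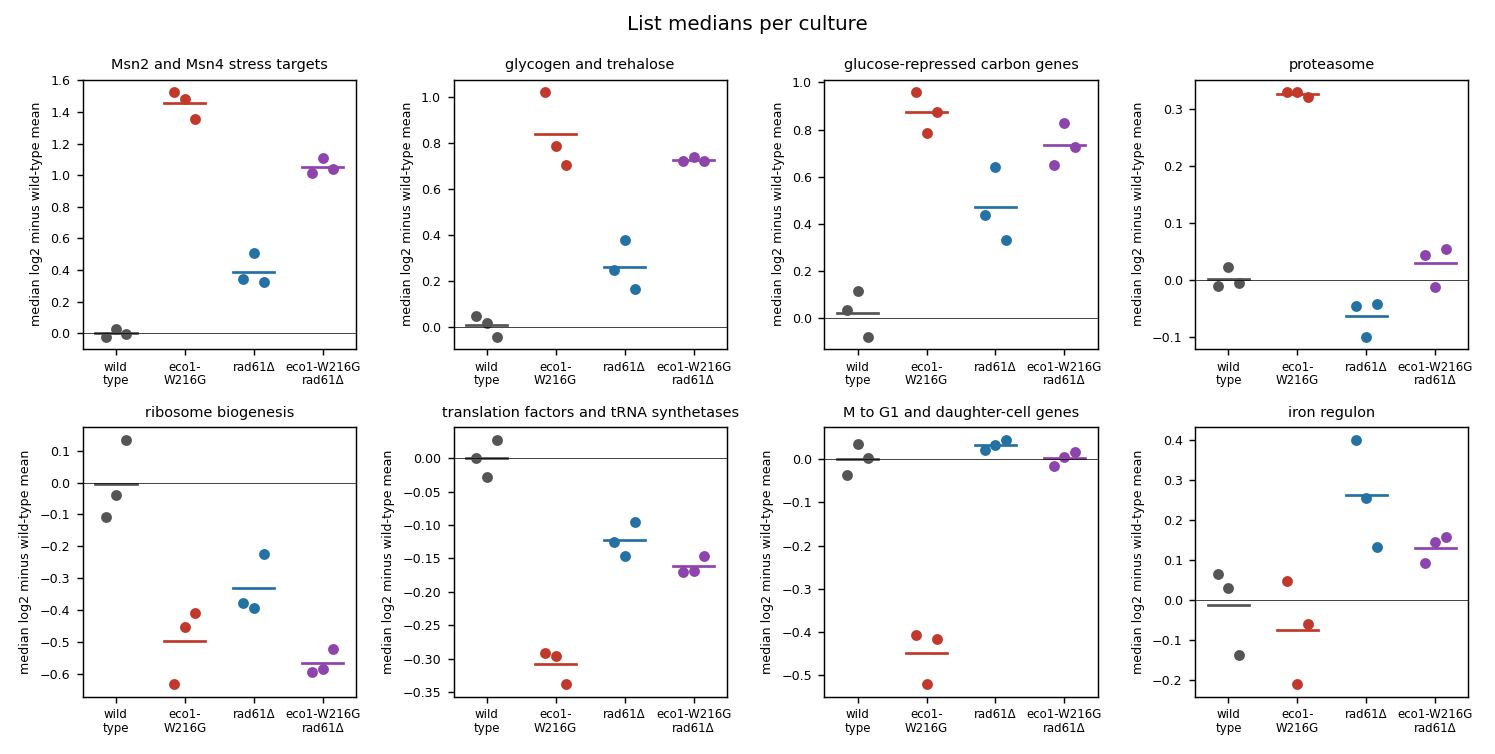
Median log2 intensity of 8 gene lists in each culture (points), relative to each gene's wild-type mean, with the group mean as a bar. For proteasome and M to G1 genes the double mutant lay near wild type, at -0.01 to 0.06 and -0.01 to 0.02, while for glycogen and trehalose genes it lay at 0.72 to 0.74, within the range of eco1-W216G, 0.70 to 1.02.

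Genes expressed when the daughter cell separates after mitosis fell with RAD61, and most did not pass the test without it. In the list of M to G1 and daughter-cell genes, with 30 members, 20 fell and 4 rose in wild type (median -0.48), 1 fell (3 with the replicate block) and 2 rose in rad61Δ (median -0.06), and 17 were higher and 1 lower in the interaction (median 0.51). The interaction shares were 56.7% higher and 3.33% lower, against 11.8% and 11.6% of all probe sets. The share called was 80% against 53.6% in wild type and 10% against 6.72% in rad61Δ. The list median in the double mutant was -0.01 to 0.02 from the wild-type mean, against -0.52 to -0.41 in eco1-W216G. BUD9, which marks the birth-scar pole for budding, read 9.95, 10.11 and 9.92 in wild type, 8.61, 8.52 and 8.46 in eco1-W216G, 9.95 ± 0.05 (SD) in rad61Δ, and 9.68, 9.60 and 9.63 in the double mutant. It fell in both backgrounds, 2.76-fold with RAD61 and 1.25-fold without it, with an interaction of 1.15 ± 0.11 (adjusted p = 5.81e-07). DSE1 and SCW11, daughter-specific genes of cell separation, were at 1.14 ± 0.26 and 1.04 ± 0.19. Chosen after their values were seen, ASH1, a daughter-cell repressor, was at 0.54 and AMN1, an antagonist of mitotic exit, at 0.98. PIR3, a cell wall protein of the same list, went the other way, with log2 rises of 4.42 with RAD61 and 1.94 without it and an interaction of -2.48 ± 0.61 (adjusted p = 0.0055).

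SFG1 and CLB2 fell with eco1-W216G where RAD61 was present, and neither passed the test without it. SFG1, a putative transcription factor of superficial pseudohyphal growth, read 10.76, 11.03 and 10.81 in wild type, 9.56, 9.64 and 9.53 in eco1-W216G, 10.31, 10.22 and 10.54 in rad61Δ, and 10.48, 10.45 and 10.45 in the double mutant. It fell 2.44-fold with RAD61, and the groups without RAD61 overlapped, with an interaction of 1.39 ± 0.22 (adjusted p = 0.000155). CLB2, the main mitotic cyclin, was at 10.06 to 10.14 in wild type, 9.41 to 9.70 in eco1-W216G, 9.73 to 9.83 in rad61Δ and 10.03 to 10.21 in the double mutant. Its change was -0.52 with RAD61 and 0.32 ± 0.11 without it, the latter not past the test (adjusted p = 0.085), and the interaction was 0.83 ± 0.15. Of 29 genes of the CLB2 cluster, 4 were higher (2 without wild-type replicate 3 or without rad61Δ replicate 2) and 3 lower, and these shares of 13.8% and 10.3% are close to those of all probe sets. Of 53 genes of the G1 to S transition and replication, 26 fell and 3 rose in wild type, 3 rose in rad61Δ and 13 were higher in the interaction, among them ORC1, of the origin recognition complex, at 0.78 ± 0.16 and MBP1, the DNA-binding subunit of the MBF factor, at 0.66 ± 0.17. The interaction share was 24.5% against 11.8% of all probe sets. The share called was 54.7% against 53.6% in wild type and 5.66% against 6.72% in rad61Δ. The count in rad61Δ was 0 without double mutant replicate 1, and without rad61Δ replicate 2 it was 1 risen and 4 fallen. Of 10 core histone genes, 7 fell in wild type, 0 passed in rad61Δ, and HTB2, for histone H2B, was higher in the interaction at 0.52 ± 0.13, a share of 10% against 11.8%. Without rad61Δ replicate 1, 4 histone genes were.

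A few cohesin genes fell less without RAD61. Of 25 genes of cohesin and its regulators, 12 fell and 2 rose in wild type, 56% against 53.6% of all probe sets. In rad61Δ only ECO1 fell (3 genes fell without rad61Δ replicate 2, 2 with the replicate block). In the interaction 5 were higher and 2 lower, 20% and 8% against 11.8% and 11.6% of all probe sets. CTF18, of the alternative clamp loader that acts in cohesion, read 8.89, 8.85 and 9.14 in wild type, 8.28, 8.16 and 8.07 in eco1-W216G, 8.51, 8.40 and 8.42 in rad61Δ, and 8.52, 8.61 and 8.51 in the double mutant. It fell with eco1-W216G where RAD61 was present, the change of 0.11 without RAD61 did not pass (adjusted p = 0.578), and the interaction was 0.90 ± 0.15 (adjusted p = 0.000232). SMC3, the subunit that Eco1 acetylates, was at 0.51 ± 0.11, the securin gene PDS1 at 0.43 ± 0.12 and the separase gene ESP1 at 0.33 ± 0.08. The 2 lower genes, DCC1 of the same clamp loader at -0.28 and SCC4 of the cohesin loader at -0.33, lost their calls without rad61Δ replicate 3 (adjusted p = 0.101 and 0.136). Of 13 condensin and Smc5/6 genes, 7 fell and 1 rose in wild type, 61.5% against 53.6% of all probe sets. In rad61Δ 0 passed, where 6.72% of all probe sets were called. In the interaction 3 were higher, 23.1% against 11.8% (1 gene without eco1-W216G replicate 3). Of 25 genes of ribosomal DNA silencing and topoisomerases, 17 fell and 1 rose in wild type, 72% against 53.6%, and 0 passed in rad61Δ. In the interaction 9 were higher (36% against 11.8%), with TOP1, topoisomerase I, at 0.61 ± 0.12 and SIR4, a silencing protein, at 0.57 ± 0.12. CSM1, of the monopolin complex, was the 1 lower gene at -0.53 ± 0.13. FOB1, the replication fork barrier gene, was at 0.56 ± 0.17 (adjusted p = 0.022), a call lost without rad61Δ replicate 1 (adjusted p = 0.0679).

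Of 39 DNA damage genes, 11 rose and 7 fell in wild type, 46.2% against 53.6% of all probe sets, and 0 passed in rad61Δ. In the interaction 7 were lower and 1 higher, 17.9% and 2.56% against 11.6% and 11.8%. HUG1, an inhibitor of ribonucleotide reductase induced by the replication checkpoint, read 7.93, 7.79 and 7.89 in wild type, 9.12, 8.97 and 9.40 in eco1-W216G, 8.34, 8.02 and 8.35 in rad61Δ, and 8.21, 8.10 and 8.20 in the double mutant. Only eco1-W216G with RAD61 was high, and the interaction was -1.36 ± 0.18 (adjusted p = 2.69e-05). RNR3, a damage-inducible reductase subunit on chromosome IX, was at -1.27 ± 0.32, and at -0.88 without rad61Δ replicate 2 (adjusted p = 0.0103). MAG1, a DNA glycosylase, was at -0.85 ± 0.20.

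Neighbouring iron genes on chromosome XV were far lower with eco1-W216G in both backgrounds. FRE3, a ferric reductase of siderophore uptake, read 8.85, 8.73 and 8.55 in wild type, 4.30, 4.09 and 4.44 in eco1-W216G, 9.37, 9.27 and 8.98 in rad61Δ, and 4.61, 4.12 and 4.73 in the double mutant. FIT2, a cell wall mannoprotein that retains siderophores, read 10.78, 10.81 and 10.73, then 3.62, 3.82 and 4.18, then 12.62, 11.55 and 11.03, then 4.39, 3.65 and 4.07. With eco1-W216G both genes lay near the 3.67 to 4.35 read for RAD61 where it is deleted. The background of their own probe sets was not measured. Their falls may be lower bounds, and their interactions, -0.28 ± 0.20 and -0.80 ± 0.51, may be limited by that floor. FIT3, a related mannoprotein, stayed above it at 6.79 ± 0.37 and 7.18 ± 0.07, against 12.09 ± 0.05 and 13.02 ± 0.59, and its interaction was -0.54 ± 0.38 (adjusted p = 0.319). In the R64 gene table these genes lie between RDR1 and FRE5, both looked up after the values were known. RDR1, a repressor of drug resistance genes, was at 9.79 to 9.98 in all 4 group means. FRE5 was at 4.00 to 4.20 in all 4, within the range read for deleted RAD61, so a fall of FRE5 could not be seen. Of 31 iron genes, 5 were higher and 2 lower in the interaction, 16.1% and 6.45% against 11.8% and 11.6% of all probe sets. Only 1 was higher without wild-type replicate 3 or without rad61Δ replicate 2. FRE4, another ferric reductase, fell by 2.02 with RAD61 and 1.37 without it, and its interaction call was lost without rad61Δ replicate 2 (adjusted p = 0.0798).

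Of 44 cell wall genes, 25 rose and 4 fell in wild type, and 4 rose in rad61Δ (13 without rad61Δ replicate 2, 9 with the replicate block). In the interaction 9 were lower and 3 higher, 20.5% and 6.82% against 11.6% and 11.8% of all probe sets. NCA3, of the SUN protein family, read 6.93, 7.29 and 7.13 in wild type, 10.61, 10.32 and 10.43 in eco1-W216G, 7.38, 7.31 and 7.12 in rad61Δ, and 8.30, 8.70 and 8.65 in the double mutant. It rose in both backgrounds without overlap, by 3.34 and 1.28 on the log2 scale, with an interaction of -2.05 ± 0.22 (adjusted p = 1.38e-06). SUN4, of the same family, was at 0.82 ± 0.12. Of 26 meiosis and sporulation genes, 15 rose and 4 fell in wild type, and 1 rose in rad61Δ. The shares called were 73.1% and 3.85%, against 53.6% and 6.72% of all probe sets. In the interaction 10 were lower and 2 higher, 38.5% and 7.69% of the list against 11.6% and 11.8%. RIM4, a translational repressor of meiosis, rose in both, by 2.82 and 1.49, with an interaction of -1.34 ± 0.27, and DMC1, the meiotic recombinase, was at -1.12 ± 0.17. SPS4, a sporulation gene, was the highest of the list at 1.30 ± 0.37 (adjusted p = 0.0136).

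Nutrient lists held members that went both ways. Of 58 amino acid synthesis genes under Gcn4, 9 were higher and 6 lower, shares of 15.5% and 10.3% against 11.8% and 11.6% of all probe sets, and the higher count was 4 without double mutant replicate 2. The lowest, SNO1 at -2.36 ± 0.52 and SNZ1 at -1.77 ± 0.36, make vitamin B6, and without rad61Δ replicate 2 SNO1 was at -1.60. Of 31 methionine and sulfur genes, 6 were lower (19.4%), with JLP1, a sulfonate dioxygenase, at -1.86 ± 0.18. The 4 higher ones (12.9%, 2 genes without eco1-W216G replicate 3) included SAM2, S-adenosylmethionine synthetase, at 0.53 ± 0.11. Of 23 genes of the phosphate list, 5 were higher and 3 lower, 21.7% and 13% of the list. The highest there, CTF19, encodes a kinetochore protein and was at 1.03 ± 0.32, a call lost without eco1-W216G replicate 3 (adjusted p = 0.0768). Of 30 sterol genes, 2 were higher, ERG6 and ERG7, 6.67% against 11.8%. Both lost their calls without rad61Δ replicate 2 (adjusted p = 0.0608 and 0.0656), and the count was 0 without eco1-W216G replicate 2. Among 7 auxotrophic marker genes LEU2, of leucine synthesis, was higher at 0.63 ± 0.14, with means of 11.23 in wild type, 10.26 in eco1-W216G, 11.70 in rad61Δ and 11.35 in the double mutant.

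The highest interactions also held genes outside the lists. HMS2, a factor related to heat shock transcription factors, fell by 1.81 with RAD61 and 0.69 without it, an interaction of 1.12 ± 0.22. PLB2, a phospholipase B, fell by 1.71 and 0.56, an interaction of 1.15 ± 0.23, and the call of its fall in rad61Δ was lost without rad61Δ replicate 2 (adjusted p = 0.0711). MDM20, a subunit of an N-terminal acetyltransferase, was at 1.05 ± 0.19. YAR066W was highest at 1.45 ± 0.39 (adjusted p = 0.00986), on a probe set marked as shared by several transcripts, and AAD3, of the aryl-alcohol dehydrogenase family, had 3 probe sets at 1.14, 0.89 and 0.67, of which the last did not pass (adjusted p = 0.0525).

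Few genes were called with eco1-W216G in rad61Δ and not in wild type. Called in the interaction and in rad61Δ, but not in wild type, were 12 probe sets, 7 higher and 5 lower, of which 5 kept both calls without rad61Δ replicate 2. SWI4, the DNA-binding subunit of the SBF factor of G1 transcription, read 8.46, 8.42 and 8.71 in wild type, 8.31, 8.44 and 8.20 in eco1-W216G, 7.85, 7.81 and 7.95 in rad61Δ, and 8.49, 8.25 and 8.12 in the double mutant. rad61Δ stood lowest, without overlap with the double mutant, and the rise there was 0.42 ± 0.11 (adjusted p = 0.0304), with an interaction of 0.63 ± 0.16. Without rad61Δ replicate 2 the rise did not pass (adjusted p = 0.0631). RTS1, a regulatory subunit of phosphatase 2A, and MSD1, the mitochondrial aspartyl-tRNA synthetase, were at 0.46 ± 0.12 and 0.45 ± 0.12, and the rise of MSD1 in rad61Δ did not pass without that replicate (adjusted p = 0.077). Of the 4 named lower genes, YIR018C-A, SEC11 and DCG1 lie on chromosome IX, and without rad61Δ replicate 2 DCG1 lost its interaction call (adjusted p = 0.0883) and SEC11 its call in rad61Δ (adjusted p = 0.0946).

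CYR1, adenylate cyclase, which makes the cyclic AMP that activates protein kinase A, was the only gene called in opposite directions. It read 9.45, 9.63 and 9.45 in wild type, 9.40, 9.19 and 9.05 in eco1-W216G, 9.35, 9.45 and 9.40 in rad61Δ, and 9.56, 9.74 and 9.68 in the double mutant. The cultures with eco1-W216G were below wild type by 0.30 ± 0.08 with RAD61 and above rad61Δ by 0.26 ± 0.08 without it (adjusted p = 0.00296 and 0.0433). The interaction was 0.56 ± 0.11 (adjusted p = 0.00101), and every fit without 1 array kept it below an adjusted p of 0.05.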

How the data were processed

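RNA was extracted by hot acid phenol, and 300 ng of it gave the biotin-labelled cRNA put on Affymetrix yeast arrays, per the labels' protocols. The authors deposited an intensity for each probe set, on a linear scale from 10.372 to 39895. Per the submitters' processing notes, the deposited intensity came from RMA with R 2.15.2. Whether both dates entered 1 normalization is not given in the sources used here. The tests had been planned for log2 values, so log2 was taken first. The table holds 5814 probe sets. Leaving out 51 controls and 47 reporters gave 5716 for the tests, of which the platform's gene table gives 1 symbol to 5498 and no symbol to 218. Arrays have no depth, and their number limits the precision.

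limma 3.58.1 in R 4.3.3 fitted the 9 group means over all 27 arrays (18 residual degrees of freedom). Tests were two-sided, with Benjamini-Hochberg adjustment over all probe sets and a threshold of 0.05. Differences carry the limma SE and group means the SD over 3 cultures. On simulated data the interaction step recovered 72 of 100 genes changed 1.5-fold and 96 of 100 changed 2-fold, with 5.08% false calls over 5716 probe sets. In the data 23.5% of probe sets were called, a far larger share than was changed there. The simulated rates need not hold for these arrays.

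The 31 gene lists have 1107 entries, 1077 of them measured, and some genes are in several lists. Members and lists were chosen with earlier results of these data known. A rule gave 146 named genes: ECO1, RAD61 and FOB1; the 10 highest and 10 lowest interactions called in every fit without 1 array; up to 4 called members per list, and members that moved opposite to most of their list; and the strongest genes with a kept, opposed or enlarged response or one called only without RAD61. Which of them to print was decided with their values visible.

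Pairing was checked by correlating deviations from group means. Same-numbered arrays of rad61Δ and the double mutant gave 0.38, 0.37 and 0.32, so the numbers were taken to pair them. Those of eco1-W216G and wild type gave 0.22, -0.24 and 0.24, so they were not. The main fit had no term for pairing, and the replicate block was run as an alternative. That block was shared by all groups, also those not taken as paired.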

Additional observations from a re-analysis of the deposited data

Results flagged for a closer look

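The change with eco1-W216G differed between the backgrounds with and without RAD61, by the interaction test, at 1341 probe sets. Among the genes described, the lower ones were HSP26 at -3.32, HSP30 at -2.98, SPG4 at -2.81, SIP18 at -2.58, DDR2 at -2.56, PIR3 at -2.48, THI4 at -2.46, XBP1 at -2.40, NQM1 at -2.38 and SNO1 at -2.36. The higher ones were YAR066W at 1.45, SFG1 at 1.39, SPS4 at 1.30, PLB2 at 1.15, BUD9 at 1.15, AAD3 at 1.14, DSE1 at 1.14, HMS2 at 1.12, MDM20 at 1.05 and SCW11 at 1.04.

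CYR1, called in opposite directions in the backgrounds, was at 0.56. Of the genes called with eco1-W216G only without RAD61, ATP10 was at 0.67, SWI4 at 0.63, RTS1 at 0.46 and MSD1 at 0.45, while YIR018C-A was at -0.70, SEC11 at -0.52, DCG1 at -0.44 and YGR201C at -0.42. ATP10 lost its call without double mutant replicate 2 (adjusted p = 0.0978).

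Outside the tested probe sets, 1 reporter probe set read at least 14.35 on the log2 scale in all 6 arrays of the rad61Δ groups and 3.62 to 3.76 in the 6 arrays of wild type and eco1-W216G. What it reports is not given in the sources used here. Groups of 3 arrays are too small for the search for single outlying samples.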

How the results depend on the processing

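The counts for the interaction and for eco1-W216G in wild type moved by less than 1.5 times under every alternative run: trended and robust prior, replicate block, only the 12 arrays, dim probe sets left out, repeated quantile normalization, median centring, array weights, a pseudocount of 16, chromosome IX left out with or without rad61Δ replicate 2, and single arrays left out. They ran from 981 to 1304 and from 2656 to 3174 with single arrays left out. The count for eco1-W216G in rad61Δ was less stable, at 183 to 553 with single arrays left out, 649 with the replicate block and 992 with array weights. Chosen after seeing the data, a replicate block within each date gave 823, and leaving out rad61Δ replicate 2 with the later-date fob1 replicate 2 gave 906. The replicate block called 1577 for the interaction, and of the named genes GAC1 gained its call and none lost it. No direction of a called value reversed. Of 146 named genes, interaction calls were lost most often without eco1-W216G replicate 3, at 28, and wild-type replicate 3, at 23. The cause of these differences was not tested. The date as a random block could not be fitted, since the groups already hold the date. Wild-type and eco1-W216G arrays come from 1 date and the rad61Δ arrays from another. Each genotype was treated as 1 isolate, which was not tested for rad61Δ replicate 2. Falls to near the level read for deleted RAD61 may be lower bounds, since the background of the other probe sets was not measured.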
